A study of Mus musculus with 6 samples.

Results

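The genes described are 9 mouse regulators of chromatin whose human counterparts recur in work on B cell lymphoma, taken by symbol from a fixed list and found once each among the 23850 gene entries of the series. They are the acetyltransferase genes Crebbp and Ep300, the SWI/SNF remodeller genes Arid1a and Smarca4, the deacetylase genes Hdac1, Hdac2 and Hdac3, the corepressor gene Ncor1 and the demethylase gene Kdm1a. All 9 reached the mean of 1 FPKM over the libraries that a gene needed to be tested, as did 10096 entries in all. FPKM is a fragment count scaled for transcript length and library total, so levels can be set side by side between genes.

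Histone acetylation is written at enhancers and promoters by CREBBP (also called CBP) and its paralog EP300, and removed by the class I deacetylases HDAC1, HDAC2 and HDAC3. HDAC3 works on the NCOR1 scaffold, which the germinal centre repressor BCL6 recruits to silence enhancers that CREBBP activates. HDAC1 and HDAC2 share the NuRD, SIN3 and CoREST complexes, and in CoREST they stand beside KDM1A (LSD1), which removes methyl groups from lysine 4 of histone H3 and also serves BCL6. SMARCA4 (BRG1) is an ATPase of the SWI/SNF complexes, and ARID1A is a subunit of their canonical BAF form. Inactivating mutations of CREBBP, EP300 and ARID1A are recurrent in human germinal centre lymphomas.

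The RNA came from germinal centre-type B cells made in culture from wild-type mice of strain C57BL/6J, 3 libraries from cells given 3 uM CHIR99021 and 3 from cells given the solvent DMSO, beside which the labels print the same 3 uM. CHIR99021 inhibits the GSK3 kinases, and the series asks how GSK3 inhibition alters the transcriptome of such cells. All 6 cultures were first naive follicular B cells grown for 4 days with 1 ng/ml IL-4 on feeder cells expressing CD40L, then kept on CD40L feeders with 10 ng/ml IL-21 for the 36 h of treatment, so feeders stood in for T cell help. The cells were purified before extraction, and nothing in the labels says whether replicates came from different mice, so the p-values measure only the spread between these libraries.

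Fragment totals are unknown, and each library summed to between 527290 and 617449 FPKM. B cell markers were present in both groups, the 7 of them summing to 1519.5 to 1777 FPKM in CHIR99021 libraries and 3155 to 4244 FPKM in DMSO libraries, and 7 of 7 fell (median log2 change -1.35, limma adjusted p up to 0.0323). Plasma cell markers (6 genes, 5 tested) summed to 470.7 to 588.5 FPKM in CHIR99021 libraries and 489.0 to 767.4 FPKM in DMSO libraries, and 2 of them rose. These were the transcription factor genes Irf4, at 82.1 ± 8.01 FPKM with CHIR99021 and 30.5 ± 2.04 FPKM with DMSO (limma adjusted p = 0.000431), and Prdm1, at 16.2 ± 2.74 FPKM with CHIR99021 and 6.27 ± 1.5 FPKM with DMSO (0.00347). With the block 3 plasma cell markers were higher, Xbp1 beside Irf4 and Prdm1, and 1 was lower, Jchain. Jchain made up the largest part of each plasma cell sum, at 289.3 ± 57.5 FPKM with CHIR99021 and 451.8 ± 135.1 FPKM with DMSO. Its groups overlapped, and its log2 change of -0.62 passed only with the block (limma adjusted p = 0.00134). Sdc1 was not called in either fit and Tnfrsf17 was not tested. Both had lower means with CHIR99021. The part of these markers in the results that follow was not tested. Germinal centre markers (7 genes, 6 tested) summed to 116.8 to 125.3 FPKM in CHIR99021 libraries and 128.9 to 135.2 FPKM in DMSO libraries. Of those tested 1 was called, Fas, at 25.2 ± 1.46 FPKM with CHIR99021 and 31.9 ± 1.67 FPKM with DMSO (limma adjusted p = 0.0328). With the block 1 was higher (Gcsam) and 2 lower (Fas and Bcl6). Of 8 T cell markers, 1 was tested and Cd3e was listed at 0 in every library, and of 8 myeloid markers, 3 were tested and Cd14 was listed at 0 in every library. T cell markers summed to 12.3 to 14.1 FPKM in CHIR99021 libraries and 13.9 to 18.8 FPKM in DMSO libraries, and myeloid markers to 62.8 to 72.7 FPKM in CHIR99021 libraries and 60.2 to 74.1 FPKM in DMSO libraries. Lck made up most of each T cell sum. Cybb made up most of each myeloid sum, at 61.9 ± 3.43 FPKM with CHIR99021 and 60.4 ± 6.34 FPKM with DMSO. The myeloid marker Itgam fell, to 1.42 ± 0.525 FPKM with CHIR99021 against 5.34 ± 0.791 FPKM with DMSO (limma adjusted p = 0.00264). The other tested myeloid markers and Lck were not called. Fibroblast markers (9 genes, 4 tested) summed to 222.7, 87.97 and 52.2 FPKM in CHIR99021 replicates 1, 2 and 3. In DMSO replicates 1, 2 and 3 they summed to 288.2, 102.9 and 71.5 FPKM. Col1a1 and Col1a2 made up most of each sum, and both were highest in replicate 1 and lowest in replicate 3 of each group. Thy1 was instead highest in replicate 3, at 6.97 FPKM with CHIR99021 and 20.6 FPKM with DMSO. Without the block Thy1 alone was called, lower with CHIR99021 (log2 change -1.16, limma adjusted p = 0.0278). With the block Col1a2, Col3a1 and Thy1 were called lower. The part of fibroblast markers in the results was not tested. In such bulk samples, fewer cells of a type and less RNA per cell cannot be told apart.

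The promoters of Hdac2 and Smarca4 are shown because these genes were called higher with CHIR99021, Hdac2 with and without a term for the replicate number and Smarca4 with it. Both windows come from RefSeq (GRCm38.p6, the assembly that mm10 is made from), run 5′ to 3′ on the gene's strand from 250 bases before to 50 bases after the annotated start, and have that start where the deposited gene spans begin. Capitals mark GC boxes, searched as GGGCGG on both strands with overlapping matches counted.
Hdac2, chr10:36974294-36974593, plus strand: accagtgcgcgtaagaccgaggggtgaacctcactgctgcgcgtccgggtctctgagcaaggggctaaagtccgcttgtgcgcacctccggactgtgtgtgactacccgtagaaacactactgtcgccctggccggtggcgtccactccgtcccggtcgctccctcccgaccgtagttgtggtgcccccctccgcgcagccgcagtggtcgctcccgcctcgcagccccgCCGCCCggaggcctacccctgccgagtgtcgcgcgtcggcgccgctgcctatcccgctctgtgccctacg
Smarca4, chr9:21615919-21616218, plus strand: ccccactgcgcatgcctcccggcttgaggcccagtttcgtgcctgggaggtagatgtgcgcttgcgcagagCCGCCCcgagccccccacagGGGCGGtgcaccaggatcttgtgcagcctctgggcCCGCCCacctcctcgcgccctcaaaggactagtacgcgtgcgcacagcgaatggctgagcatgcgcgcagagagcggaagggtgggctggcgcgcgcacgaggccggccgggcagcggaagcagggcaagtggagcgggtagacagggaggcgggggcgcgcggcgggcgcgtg

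The Hdac2 window held 1 GC box and the Smarca4 window 3, a motif found in 35.7% of all 32851 promoter windows. Neither held CTTTGAT (TCF/LEF), CACGTG (E-box), CCAAT or CCGGAA (ETS), which occur on either strand in 3.73%, 7.15%, 37.4% and 14.9% of windows. Both were rich in CG dinucleotides, with 36 in the Hdac2 window and 33 in the Smarca4 window, against a median of 7 over all windows. RefSeq windows were matched for 7 of the 9 genes. There was none for Hdac1, and chromosome 18, where Hdac3 lies, was left out. Among those matched, Crebbp had 49 CG dinucleotides, Ep300 30 and Kdm1a 29, while a second, internal Ncor1 start (chr11:62438466-62438765) had 2. TCF/LEF and E-box letters were in none of the windows of the matched genes.

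The 9 genes spanned a wide range of levels, with the deacetylases at the top and the acetyltransferases at the bottom. Hdac1 averaged 111.1 ± 7.83 FPKM in CHIR99021 libraries and 131.2 ± 4.83 FPKM in DMSO libraries (SD, n = 3 each, as for all means here). It lay at or above the 93.1 percentile of tested genes in every library. Crebbp averaged 2.25 ± 0.803 FPKM with CHIR99021 and 3.09 ± 1.08 FPKM with DMSO, and its percentile ran from 9.38 to 18.4 in CHIR99021 libraries and from 10.9 to 23.1 in DMSO libraries. Between these ends came, in CHIR99021 libraries, Hdac2 (40.8 ± 2.69), Hdac3 (35.2 ± 0.285), Smarca4 (33.02 ± 4.74), Ncor1 (29.6 ± 3.77), Kdm1a (23.9 ± 2.64), Arid1a (18.4 ± 5.25) and Ep300 (9.91 ± 2.46 FPKM). In DMSO libraries the order was Hdac3 (32.3 ± 2.59), Hdac2 (30.2 ± 1.38), Ncor1 (30.2 ± 3.96), Smarca4 (26.6 ± 6.15), Arid1a (25.1 ± 8.99), Kdm1a (24.05 ± 1.95) and Ep300 (11.8 ± 3.37 FPKM). From Hdac3 down to Kdm1a in the DMSO order, and from Hdac3 down to Arid1a in the CHIR99021 order, neighbours overlapped in range. Hdac1, Ep300 and Crebbp were apart from their neighbours in both groups, and Hdac2 lay above Hdac3 in 3 of 3 CHIR99021 libraries with no overlap.

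**Figure D1:**
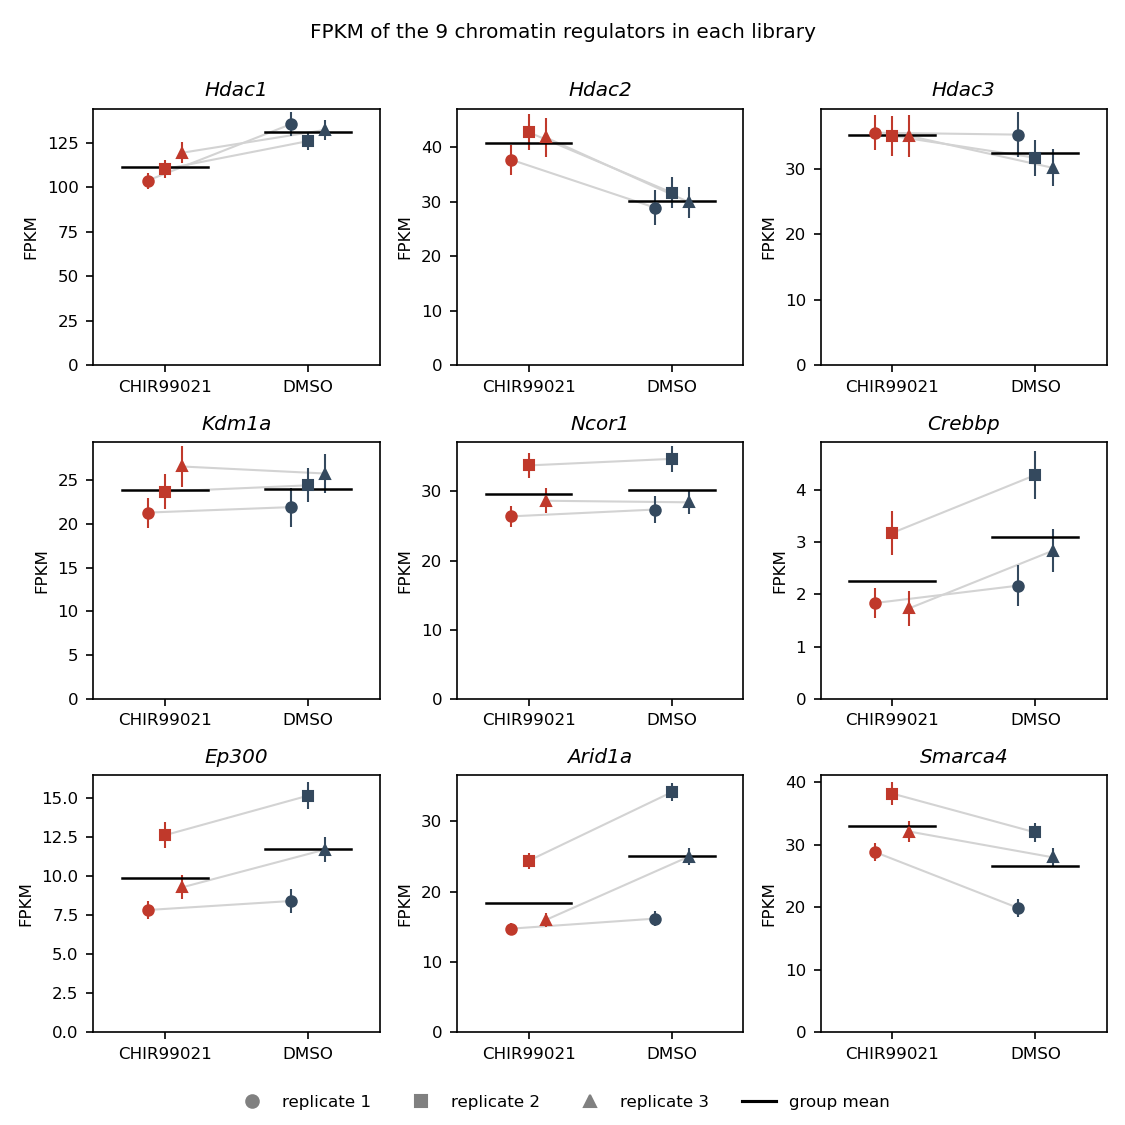
FPKM of each gene (vertical axes, from 0) in the 3 CHIR99021 and 3 DMSO libraries, with the Cufflinks confidence limits of each library as bars, the group mean as a black line and libraries of the same replicate number joined. Hdac2 is higher in every CHIR99021 library and Hdac1 lower, while replicate 2 (squares) is the highest library of both groups for Crebbp, Ep300, Arid1a, Smarca4 and Ncor1.

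With CHIR99021, 1 of the 9 genes passed the test, Hdac2, which rose. Of all tested genes 21.4% passed, 8.13% higher and 13.3% lower in CHIR99021. The groups did not overlap for 2 of the 9 genes (22.2%), Hdac2 and Hdac1, against 40.1% of all tested genes. Same-numbered libraries of the groups deviated together across genes, and with the replicate number as a block 4 of the 9 passed (44.4%), Hdac2 and Smarca4 higher and Hdac1 and Arid1a lower, against 42.8% of all tested genes (18.4% higher and 24.4% lower). Both shares of calls were near or below the background.

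Hdac2, a class I deacetylase of the NuRD, SIN3 and CoREST complexes (chromosome 10, 36974544 to 37001888), had 37.7, 42.8 and 41.8 FPKM in CHIR99021 replicates 1, 2 and 3, against 29.0, 31.7 and 29.9 FPKM in DMSO replicates 1, 2 and 3. Every CHIR99021 library was above every DMSO library. The ratio of means was 1.35, and the log2 change was 0.42 ± 0.09 (SE, limma adjusted p = 0.0130, and 0.00207 with the replicate block). Its rise was seen in 3 of 3 replicate numbers, with differences of 0.37, 0.42 and 0.47 on the log2(FPKM + 1) scale. The adjusted p was 0.0624 without CHIR99021 replicate 3 and 0.0541 without replicate 2 of both groups, an alternative added after the data were seen, with the log2 change at 0.40 and 0.42.

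Hdac1, the paralog that shares those complexes (chromosome 4, 129516104 to 129542646), had 103.8, 110.2 and 119.4 FPKM in CHIR99021 replicates 1, 2 and 3, against 135.4, 125.9 and 132.2 FPKM in DMSO replicates 1, 2 and 3. Every CHIR99021 library was below every DMSO library. Its log2 change of -0.24 ± 0.08 (SE) missed the threshold (limma adjusted p = 0.0779), and passed with the replicate block (adjusted p = 0.0229). Hdac1 was called in 1 of 16 other settings, the one with the block. Its log2 change was -0.17 with upper-quartile scaling (limma adjusted p = 0.243), -0.19 with median-ratio scaling (0.200) and -0.21 with quantile scaling (0.0609). A processed pseudogene annotated in GENCODE M21, Gm10093, matches the Hdac1 transcript at 99.4% over 1444 bases, and 2 others match at 96.3% and 94.5% (AC125456.1 and Gm4864). The counting of reads with several matches is not stated in any source used here, so whether the Hdac1 values include reads from these copies is unknown. Shorter or less similar processed pseudogenes match Arid1a (Gm8134, 91.6% over 1134 bases) and Ncor1 (Gm6743, 94.8% over 556 bases), to which the same doubt applies. No pseudogene named here has an entry under its symbol in the series.

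Hdac3, the catalytic subunit on the NCOR1 scaffold (chromosome 18, 37936971 to 37954988), had 35.5, 35.0 and 35.0 FPKM in CHIR99021 replicates 1, 2 and 3, against 35.2, 31.7 and 30.1 FPKM in DMSO replicates 1, 2 and 3. DMSO replicate 1 lay within the CHIR99021 range. Its log2 change was 0.12 with a 95% interval of -0.08 to 0.32 (limma adjusted p = 0.364, and 0.187 with the block).

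Added up, the 3 deacetylase genes came to 177.0, 188.0 and 196.2 FPKM in CHIR99021 libraries and 199.6, 189.3 and 192.3 FPKM in DMSO libraries, ranges that overlap. Hdac2 made up 21.8 ± 0.834% of that sum in CHIR99021 libraries and 15.6 ± 1.12% in DMSO libraries, and Hdac1 made up 59.4 ± 1.28% in CHIR99021 libraries and 67.7 ± 1.12% in DMSO libraries. The share of Hdac3 was 18.8 ± 1.12% in CHIR99021 libraries and 16.7 ± 0.982% in DMSO libraries. None of the 3 shares overlapped between groups, though for Hdac3 the lowest CHIR99021 library (17.8%) and the highest DMSO library (17.6%) lay close together. The shares are parts of the same sum and so are not independent of each other, and Hdac1 is the largest part. Hdac1 and Hdac2 did not overlap in FPKM either, while Hdac3 did, so its share adds no separate result.

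Ncor1, the scaffold that activates HDAC3 (chromosome 11, 62316426 to 62457332), had 26.4, 33.7 and 28.6 FPKM in CHIR99021 replicates 1, 2 and 3, against 27.4, 34.7 and 28.4 FPKM in DMSO replicates 1, 2 and 3. The groups overlapped almost completely, and the libraries ordered by replicate number. The log2 change was -0.03 with a 95% interval of -0.32 to 0.27, or -0.17 to 0.12 with the block, and adjusted p = 0.914 in limma's fit without the block. Kdm1a, the lysine demethylase of the CoREST complex (chromosome 4, 136550533 to 136602723), had 21.3, 23.7 and 26.6 FPKM in CHIR99021 replicates 1, 2 and 3, against 21.9, 24.4 and 25.8 FPKM in DMSO replicates 1, 2 and 3. Here too the groups overlapped, and same-numbered libraries lay close together. Its log2 change was -0.01 with a 95% interval of -0.27 to 0.24, or -0.16 to 0.14 with the block (limma adjusted p = 0.955 without it). The sign of both changes depended on the scaling, at 0.06 (Kdm1a) and 0.05 (Ncor1) with upper-quartile scaling.

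Crebbp, an acetyltransferase of enhancer histones (chromosome 16, 4084048 to 4213404), had 1.83, 3.17 and 1.73 FPKM in CHIR99021 replicates 1, 2 and 3, against 2.16, 4.28 and 2.83 FPKM in DMSO replicates 1, 2 and 3. The groups overlapped, though each CHIR99021 library was below the DMSO library of its number. The log2 change was -0.33 ± 0.24 (SE, limma adjusted p = 0.384), with an adjusted p of 0.0606 with the block. At these levels the Cufflinks limits of a library lay 10.8% to 19.6% from its value, while those of the other 8 genes lay 3.79% to 11.1% away. Ep300, its paralog (chromosome 15, 81586214 to 81652077), had 7.83, 12.6 and 9.28 FPKM in CHIR99021 replicates 1, 2 and 3, against 8.41, 15.2 and 11.7 FPKM in DMSO replicates 1, 2 and 3. It too was lower with CHIR99021 in 3 of 3 replicate numbers while the groups overlapped, at a log2 change of -0.21 ± 0.23 (SE, limma adjusted p = 0.558, and 0.0714 with the block). Neither acetyltransferase gene passed the test in either fit.

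Arid1a, a subunit of canonical BAF (chromosome 4, 133679008 to 133753611), had 14.8, 24.4 and 16.0 FPKM in CHIR99021 replicates 1, 2 and 3, against 16.2, 34.2 and 25.0 FPKM in DMSO replicates 1, 2 and 3. The range from the lowest to the highest library of each group was wider than the difference between the means, and the groups overlapped. The log2 change of -0.40 ± 0.28 (SE) did not pass without the block (limma adjusted p = 0.343) and did with it (-0.40 ± 0.10, adjusted p = 0.0192). Within replicate numbers 1, 2 and 3 the differences were -0.12, -0.47 and -0.61. Smarca4, the ATPase of the same complexes (chromosome 9, 21616169 to 21704230), had 28.8, 38.2 and 32.1 FPKM in CHIR99021 replicates 1, 2 and 3, against 19.9, 31.9 and 28.0 FPKM in DMSO replicates 1, 2 and 3. DMSO replicate 2 lay within the CHIR99021 range. Its log2 change was 0.32 ± 0.18 (SE, limma adjusted p = 0.248, and 0.0194 with the block), with differences of 0.51, 0.25 and 0.19 within replicate numbers 1, 2 and 3. These SWI/SNF subunits thus stood on opposite sides of 0 in every replicate number.

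**Figure D2:**
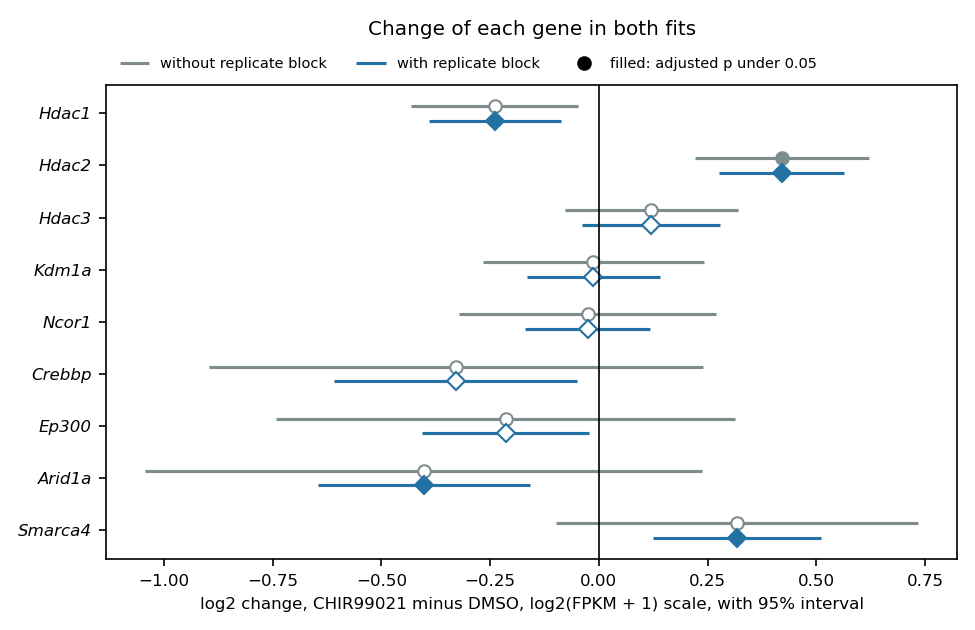
Log2 change of each gene, CHIR99021 minus DMSO, on the log2(FPKM + 1) scale (horizontal axis) with its 95% interval, in the fit without the replicate block (grey circles) and with it (blue diamonds). Filled symbols passed an adjusted p of 0.05: Hdac2 in both fits, and Hdac1, Arid1a and Smarca4 with the block.

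The 5 genes with long transcripts were highest in replicate 2 of both groups. In CHIR99021 libraries, replicate 2 exceeded the mean of replicates 1 and 3 by 0.58 for Crebbp, 0.52 for Ep300, 0.63 for Arid1a, 0.32 for Smarca4 and 0.29 for Ncor1, in log2 units. In DMSO libraries the same excess was 0.60 for Crebbp, 0.56 for Ep300, 0.73 for Arid1a, 0.42 for Smarca4 and 0.31 for Ncor1. Their longest annotated transcripts measure 6376 to 10820 bases. For Hdac1, Hdac2, Hdac3 and Kdm1a, with transcripts of 2032 to 3250 bases, the same difference ran from -0.09 to 0.10. Over all 1127 tested genes with a transcript of 6000 bases or more, the median excess was 0.16 in CHIR99021 libraries and 0.20 in DMSO libraries, while for the 8141 shorter ones it was 0.04 in CHIR99021 libraries and -0.02 in DMSO libraries. Between the treatments, CHIR99021 minus DMSO, the median log2 change was -0.05 for the long and -0.03 for the shorter genes. Replicate 2 also had the lowest summed FPKM of each group, 556644 with CHIR99021 and 527290 with DMSO, and the part of transcript length in the results was not tested.

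**Figure D3:**
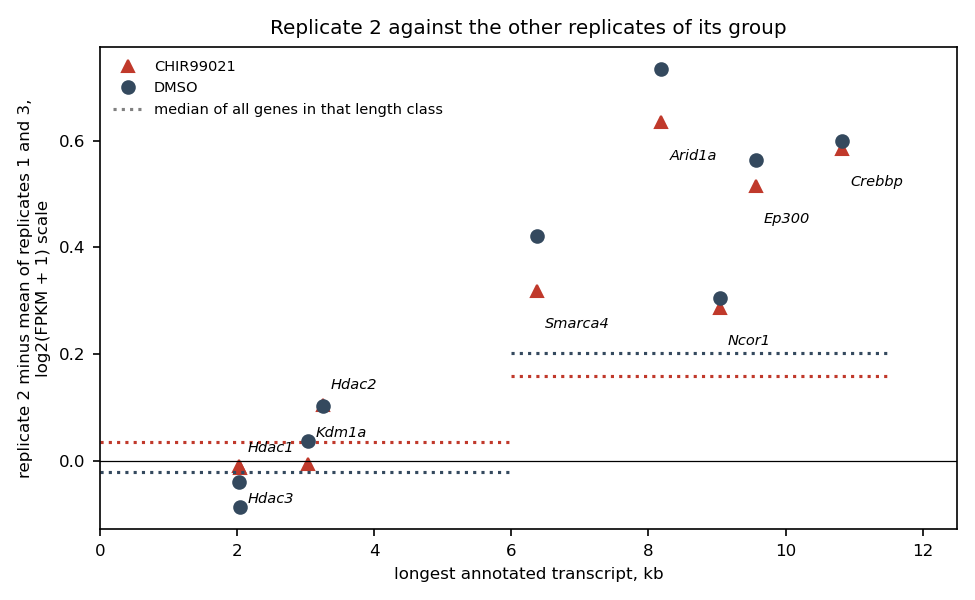
Replicate 2 minus the mean of replicates 1 and 3 of its group, in log2(FPKM + 1) units (vertical axis), against the longest annotated transcript in kb (horizontal axis), for each gene in CHIR99021 (triangles) and DMSO (circles), with dotted lines at the median of all tested genes below and above 6000 bases. The 5 genes with long transcripts lie above the dotted lines in both groups and the other 4 lie near 0.

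The ratio of FPKM between paralogs within a library does not depend on the scaling between libraries. For 5 pairs the difference of log2(FPKM + 1) between the paralogs, which depends on it slightly through the added 1, was compared with exact two-sided permutation tests. With 3 libraries against 3 the smallest possible p is 0.1, so none could pass, and the adjusted value for a p of 0.1 was 0.25. The ratio of Smarca4 to Smarca2, the alternative ATPase (BRM), was 5.38, 4.98 and 4.99 in CHIR99021 libraries against 2.12, 2.22 and 2.82 in DMSO libraries. All 3 CHIR99021 ratios were above all 3 DMSO ratios, with a difference of 1.01 ± 0.12 on the log2(FPKM + 1) scale (SE, exact permutation p = 0.1) and of 1.11 ± 0.13 in the plain log2 ratio, an alternative added after the data were seen. Smarca2 alone fell, to 6.48 ± 1.16 FPKM with CHIR99021 against 11.2 ± 2.74 FPKM with DMSO (limma adjusted p = 0.0334). That call did not hold without CHIR99021 replicate 1 (0.0950), CHIR99021 replicate 3 (0.108), DMSO replicate 2 (0.0678) or DMSO replicate 3 (0.0684), or without the filter on level (0.0762).

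The ratio of Hdac1 to Hdac2 was 2.75, 2.58 and 2.86 in CHIR99021 libraries against 4.68, 3.97 and 4.42 in DMSO libraries, again without overlap (difference -0.66 ± 0.08 SE on the log2(FPKM + 1) scale, exact permutation p = 0.1). Every CHIR99021 library was below every DMSO library for Hdac1 and above for Hdac2, so these ratios could not overlap. Their lack of overlap and its p thus add no separate result. For the other 3 pairs the groups overlapped. Crebbp stood to Ep300 at 0.234, 0.251 and 0.187 in CHIR99021 libraries against 0.257, 0.282 and 0.242 in DMSO libraries (exact permutation p = 0.3). The ratio was lower with CHIR99021 in 3 of 3 replicate numbers, for which an exact sign-flip permutation test within replicate numbers gave p = 0.25, the smallest it can give. Its difference was -0.11 on the log2(FPKM + 1) scale and -0.23 in the plain log2 ratio, CHIR99021 minus DMSO. Arid1a to Arid1b, its alternative subunit, ran from 2.84 to 3.78 with CHIR99021 and from 2.59 to 4.40 with DMSO, and Kdm1a to Kdm1b, a second lysine demethylase, from 4.57 to 4.81 with CHIR99021 and from 3.49 to 5.35 with DMSO (exact permutation p = 0.8 and 0.9). Arid1b averaged 5.43 ± 0.926 FPKM with CHIR99021 and 6.98 ± 0.760 FPKM with DMSO. It missed the threshold without the block and passed it, lower with CHIR99021, with the block (limma adjusted p = 0.0359).

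**Figure D4:**
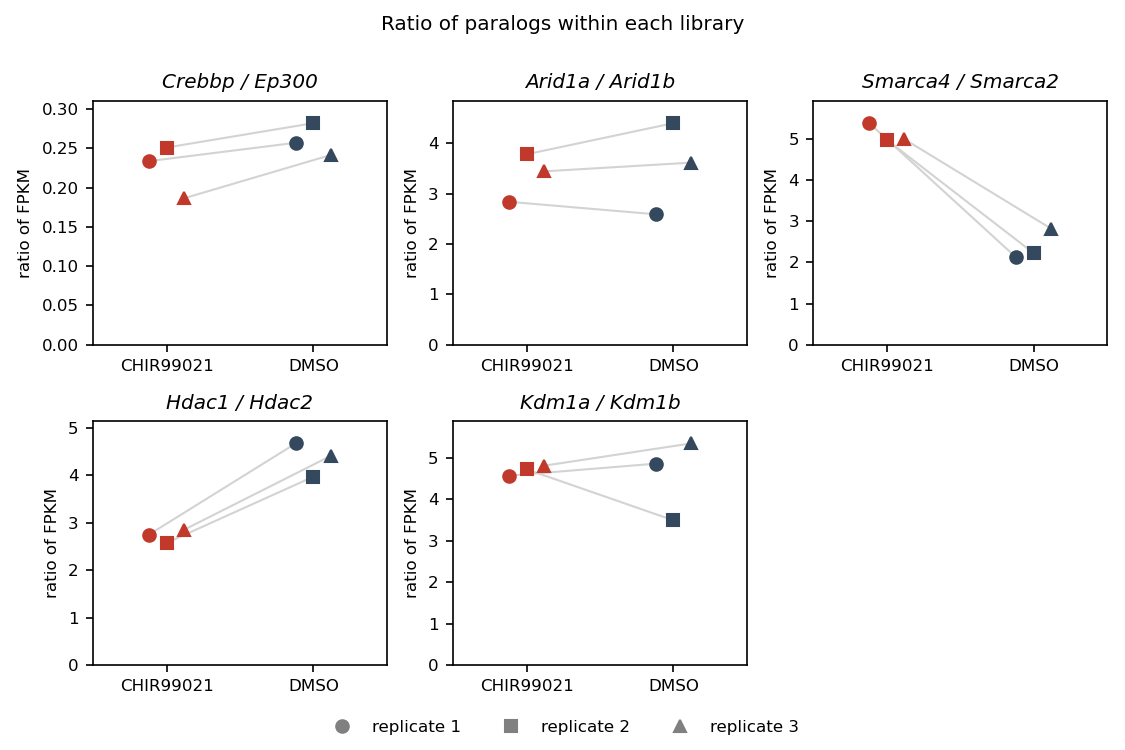
Ratio of FPKM between paralogs within each library (vertical axes, from 0) in CHIR99021 and DMSO, with same-numbered replicates joined. The groups are apart for Smarca4 to Smarca2, at 4.98 to 5.38 in CHIR99021 and 2.12 to 2.82 in DMSO, and for Hdac1 to Hdac2, at 2.58 to 2.86 in CHIR99021 and 3.97 to 4.68 in DMSO. For Hdac1 to Hdac2 this follows from the separate groups of each gene, Hdac1 lower and Hdac2 higher in CHIR99021.

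Few of the genes that work with the 9 passed the test. Of 93 tested genes in 9 lists of related complexes, the 9 genes themselves left out, 1 rose and 9 fell (10.8% called), against 21.4% of all tested genes, and their median log2 change was -0.14, against -0.04 over all tested genes. The split depended on the scaling, with 5 higher and 7 lower after upper-quartile scaling and 2 higher and 8 lower after quantile or median-ratio scaling. With the replicate block 9 were higher and 30 lower (41.9%), against 42.8% of all tested genes. In the counts that follow the 9 genes are included where they belong to a list.

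Of 22 tested SWI/SNF subunits 1 rose and 1 fell (median log2 change -0.15), or 2 and 8 with the block. The gene that rose was Phf10, a subunit of the PBAF form, at 45.8, 52.6 and 53.7 FPKM in CHIR99021 libraries against 27.0, 32.5 and 32.7 FPKM in DMSO libraries (log2 change 0.71 ± 0.11 SE, limma adjusted p = 0.00418), and Smarca2 was the one that fell. Of 12 tested acetyltransferase genes 0 rose and 1 fell (median -0.25), or 1 and 4 with the block. It was Ncoa1, a nuclear receptor coactivator, at 3.19 ± 0.712 FPKM with CHIR99021 and 5.50 ± 0.853 FPKM with DMSO (limma adjusted p = 0.0330). Of 10 tested deacetylase genes Hdac2 rose and 2 fell (median -0.09), or 1 and 5 with the block. Those that fell were the class II genes Hdac10, at 7.02 ± 1.02 FPKM with CHIR99021 and 11.9 ± 2.30 FPKM with DMSO (limma adjusted p = 0.0210), and Hdac5, at 15.6 ± 0.924 FPKM with CHIR99021 and 20.9 ± 1.37 FPKM with DMSO (0.0216). The calls of Ncoa1, Hdac10 and Hdac5 were lost without CHIR99021 replicate 1, CHIR99021 replicate 3 or DMSO replicate 3, that of Hdac5 also without DMSO replicate 1 and that of Ncoa1 also without DMSO replicate 2 or the filter on level (adjusted p = 0.0530 to 0.124).

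In the NuRD complex, a remodeller and deacetylase, Hdac2 rose and 2 of 13 tested genes fell (median -0.04), or 3 were higher and 4 lower with the block. Mta3, a NuRD subunit linked to BCL6 in germinal centre B cells, had 18.7, 17.0 and 20.2 FPKM in CHIR99021 libraries against 33.6, 29.6 and 35.5 FPKM in DMSO libraries. It was 1.76-fold lower with CHIR99021, without overlap (log2 change -0.79 ± 0.11 SE, limma adjusted p = 0.00240), and was called under each of the 16 other settings tried, as was Phf10. Mta2, another NuRD subunit, fell to 76.4 ± 3.32 FPKM with CHIR99021, against 96.2 ± 1.02 FPKM with DMSO (limma adjusted p = 0.0175). The call of Mta2 was lost without replicate 1 or 3 of either group (adjusted p = 0.0501 to 0.0766). Hdac2 was the sole gene called in the SIN3 list (1 of 17 tested, median -0.13) and in the CoREST list (1 of 13, median -0.12). With the block, 3 were higher and 4 lower in SIN3, and 1 higher and 4 lower in CoREST.

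Of 5 genes listed for the NCoR complex 1 fell (median -0.04), with or without the block. This was Gps2, a core subunit, at 27.6 ± 3.13 FPKM with CHIR99021 and 36.1 ± 2.57 FPKM with DMSO (limma adjusted p = 0.0408), a call that held in 6 of 16 other settings and was lost without any library but CHIR99021 replicate 2 (adjusted p up to 0.146). Of 10 genes of the KMT2C/KMT2D complexes, which methylate enhancer histones and include another frequent lymphoma target, 0 rose and 1 fell (median -0.01), or 3 and 2 with the block. It was the adaptor gene Pagr1a, at 24.6 ± 5.33 FPKM with CHIR99021 and 37.6 ± 1.87 FPKM with DMSO (limma adjusted p = 0.0284). Of 9 tested genes for BCL6 and the BCOR complex 0 rose and 1 fell (median -0.14), or 1 and 4 with the block. Ring1, a ubiquitin ligase of Polycomb, had 8.15 ± 1.18 FPKM with CHIR99021 and 12.9 ± 2.50 FPKM with DMSO (limma adjusted p = 0.0333). Bcl6, the repressor that brings NCOR1 and HDAC3 to DNA, had 3.39, 6.53 and 3.74 FPKM in CHIR99021 libraries against 5.35, 9.67 and 6.54 FPKM in DMSO libraries. Its groups overlapped, replicate 2 was the highest in both, and its call depended on the block in the way of Arid1a (limma adjusted p = 0.160 without and 0.00307 with it). The call of Pagr1a was lost without DMSO replicate 1, 2 or 3 and that of Ring1 without CHIR99021 replicate 1 or 3 or DMSO replicate 1 or 2 (adjusted p = 0.0532 to 0.126). Both were also lost without the filter on level (0.0627 for Pagr1a and 0.0710 for Ring1), Pagr1a with upper-quartile (0.0624) and median-ratio scaling (0.0530), and Ring1 without replicate 2 in both groups (0.0817).

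**Figure D5:**
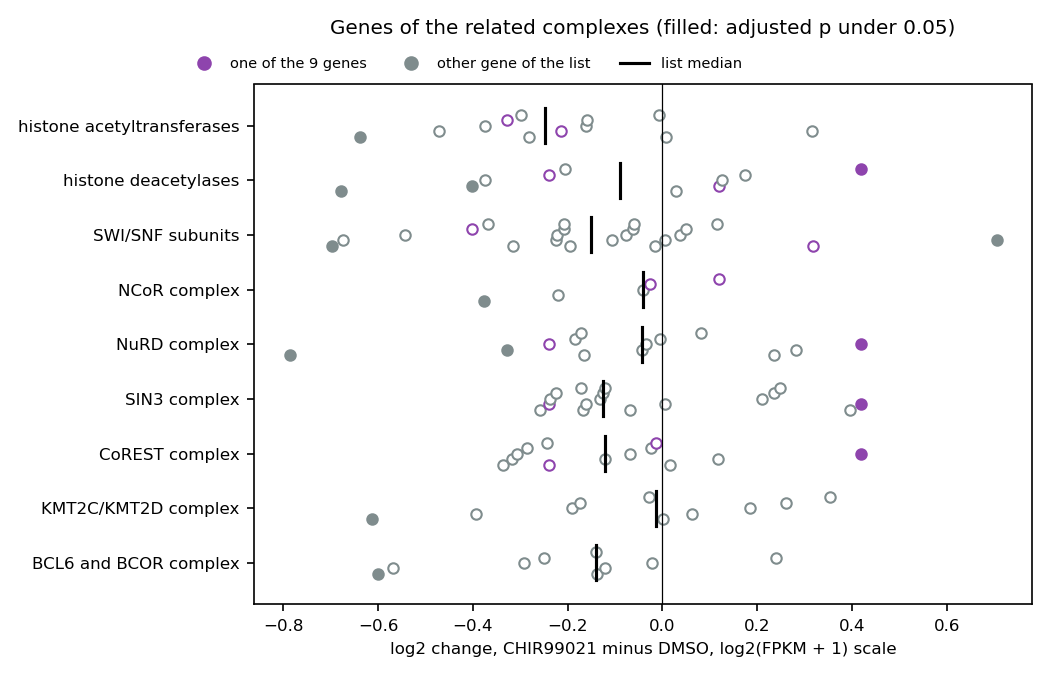
Log2 change, CHIR99021 minus DMSO, on the log2(FPKM + 1) scale (horizontal axis) of each tested gene in the related lists, the 9 chromatin regulators in purple and list medians as black lines. Filled points passed an adjusted p of 0.05 without the block, among them Phf10 and Hdac2 on the right and Mta3 on the far left, and most points are open.

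Over the 6 libraries, the tested gene of the related lists whose log2 level ran closest to Arid1a was Kat6a (Pearson r = 0.993), to Crebbp Smarcc2 (0.991), to Ncor1 Chd3 (0.989) and to Ep300 Sin3a (0.988), each picked as the best of 101 genes. For Hdac2 it was Phf10 (0.985), the other gene that rose, for Smarca4 Paxip1 (0.944) and for Hdac1 Mta3 (0.920). The best values were lower for Kdm1a (Ash2l, 0.831) and Hdac3 (Brd7, 0.600). These values are descriptions over 6 libraries that share depth and replicate number. They also take in the difference between the treatments. A high value is thus in part built in for genes that changed in the same direction, such as Hdac2 with Phf10 and Hdac1 with Mta3.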

How the data were processed

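Each of the 6 libraries has a table of its own, which per the file headers is a Cufflinks gene table with FPKM, its lower and upper confidence limits and a status, given as OK throughout. The submitters' processing notes name TopHat2 2.1.1, Cufflinks 2.2.1, cutadapt 1.12 and build mm10. The annotation, the strand setting and the handling of reads with several matches were not given in the sources used here. Because the authors deposited FPKM, count tests were not applied and depth is unknown. The confidence limits of a typical tested gene (median) lay 12.5% to 15.4% from its value, an error of single libraries only. Gene spans are those of the tables, with starts counted from 1.

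Entries averaging at least 1 FPKM across the 6 libraries were fitted on log2(FPKM + 1) by limma 3.58.1 (R 4.3.3, lmFit and eBayes with trend), CHIR99021 against DMSO, with two-sided p-values adjusted by Benjamini-Hochberg over all 10096 entries and a threshold of 0.05, and the script was tested on simulated data. Log2 changes are on the log2(FPKM + 1) scale, which understates changes of low genes such as Crebbp. Deviations from the group means correlated across genes at 0.535, 0.490 and 0.517 for libraries 1, 2 and 3 of both groups, numbers that the titles give, and at -0.352 to -0.140 for other pairs. The replicate number was therefore also fitted as a block. The alternatives were other pseudocounts (0.1 and 5), filters and scalings, no trend, the block, and each library left out.

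The 9 genes and the lists of related complexes and markers were chosen with earlier results of these data known. Besides the 9 genes, the text names from each list at most 4 genes past the threshold, those of lowest adjusted p, the other gene of each paralog pair, Bcl6, the closest gene by Pearson r, and markers. An item was left out of these lists and ratios and is not reported here. Older symbols were needed for 5 list genes. Copies were sought with megablast among GENCODE M21 transcripts (matches of at least 90% identity), and transcript lengths come from the same release, with a length for 91.8% of tested entries. Tables were joined with pandas 2.3.3 in Python 3.11.15, and plots made with matplotlib 3.10.9.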

Additional observations from a re-analysis of the deposited data

How the results depend on the processing

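The direction of change was kept in all settings in which they were tested for Crebbp, Ep300, Arid1a, Smarca4, Hdac1, Hdac2 and Hdac3, and Hdac2 was called in 14 of 16 settings. Crebbp was tested in 15 of these, as its mean lay below the higher filter of 5 FPKM. With the replicate block 4321 of all genes, 4 of the 9 genes and 39 related genes were called, against 2164, 1 and 10 without it. The related count fell to 5 without a filter on level. Leaving out each library gave 1061 to 1983 calls over all genes, 0 to 1 among the 9 genes and 3 to 10 among related genes, and without replicate 2 in both groups, an alternative added after the data were seen, 1337 genes and 0 of the 9 were called. Upper-quartile, quantile and median-ratio scaling raised the share of calls that were higher in CHIR99021 to 52.3%, 51.2% and 45.4%, against 37.9% as deposited.

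Values near 0 changed sign. With upper-quartile, quantile and median-ratio scaling the log2 change was 0.059, 0.038 and 0.032 for Kdm1a and 0.046, 0.026 and 0.019 for Ncor1, and 0.000135 for Kdm1b with quantile scaling. Leaving out single libraries gave -0.090 to 0.063 for Kdm1a, -0.12 to 0.076 for Ncor1 and -0.17 to 0.10 for Kdm1b, and without replicate 2 in both groups Kdm1a was at 0.00143 and Kdm1b at 0.10. The log2 ratio difference of Crebbp to Ep300 was 0.00451 with a pseudocount of 5. Leaving out single libraries moved that of Arid1a to Arid1b between -0.29 and 0.088 and that of Kdm1a to Kdm1b between -0.098 and 0.17. The cause was not tested. At the level of Crebbp, a difference between single libraries that is smaller than their Cufflinks limits cannot be resolved, and fragment totals are unknown.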
